A study of Mus musculus with 12 samples.

Results

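The ubiquitin-conjugating enzyme genes were chosen by name, as every gene whose symbol on the array platform starts with Ube2, and 33 such genes were carried by 81 of the 45101 probe sets. A probe set was kept where its log2 value was over 4 on at least 3 of the 12 arrays, and the kept probe set with the highest mean stood for its gene. By this rule 30 of the 33 genes and 70 of the 81 probe sets were measured, among 11449 measured genes in all. The levels themselves therefore chose the measured genes, and the levels are given as a description. The tests below are of differences between groups, which the choice of probe sets did not use, except that a gene kept through 1 stage alone had to differ between the stages.

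Ubiquitin is attached to proteins by a relay of enzymes. An E1 enzyme activates ubiquitin, an E2 or ubiquitin-conjugating enzyme carries it on a cysteine, and an E3 ligase brings the loaded E2 to the substrate. The E2 often decides which type of ubiquitin chain is built, and so whether the substrate is degraded by the proteasome, moved within the cell or altered in its signalling. Some E2 enzymes carry a ubiquitin-like protein such as NEDD8 instead, and dividing cells use a small group of E2 enzymes to complete mitosis. In the brain, ubiquitylation is known for its parts in progenitor division, axon growth and synapse turnover.

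RNA was compared in 4 groups of 129/Sv mice, with 3 arrays each: Qkf gt/gt mutant adult dorsal cerebral cortex, wild-type adult dorsal cerebral cortex, Qkf gt/gt mutant dorsal telencephalon at E12.5 (the embryonic day, when cortical neurons begin to form), and wild-type E12.5 dorsal telencephalon. Qkf is another name of Kat6b, a histone acetyltransferase gene, and gt/gt denotes a gene-trap allele on both chromosomes, carried by the whole animal and not by 1 cell type. Adults were male by label, mutants aged 155, 112 and 99 days and wild types 155, 112 and 101 days. The embryos came from a pair of crosses, with mutant 1 and wild type 1 from the first and the other 4 from the second, and the labels do not say whether an array held 1 embryo or a pool.

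Kat6b, the trapped gene, had log2 values of 6.92 to 7.25 in adult mutants and 9.35 to 9.72 in adult wild types, and of 6.22 to 7.72 in embryonic mutants and 11.28 to 11.42 in embryonic wild types. Array medians lay between 3.64 and 3.74, the lowest value of every array was 2.19, and no replicates held identical values. Xist was high in mutant embryo 3 and in wild-type embryos 1 and 2, so that the sexes were mixed in the embryos. Dlx2, a ventral telencephalon gene, was higher in the first-cross embryos, at 8.43 in mutant 1 and 9.04 in wild type 1, than in the other 4, at 3.21 to 5.81. In adult mutant 3 Ttr, a choroid plexus gene, stood at 15.16, against 6.79 to 9.18 on the other 5 adult arrays. Markers of the labelled tissues were present: cortical neuron genes averaged 12.43 to 12.48 in adult mutants and 12.30 to 12.52 in adult wild types, and telencephalic progenitor genes 10.72 to 10.95 in embryonic mutants and 10.82 to 10.95 in embryonic wild types. The date in the array labels differs between adults and embryos, and mutant embryo 1 carries a later one than the other embryos.

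A gene was called at an adjusted p under 0.05 by limma, a linear model fitted over all 12 arrays and all 11449 genes, with Benjamini-Hochberg adjustment. All differences are of log2 values, so that 1 unit is a 2-fold change. Errors of group means are SD over 3 arrays and those of differences are limma's standard errors (SE). Since the tissue was measured in bulk, fewer cells of a type and less RNA per cell cannot be told apart.

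One family member differed between genotypes at E12.5. Ube2ql1, which encodes a protein of the UBE2Q type known as the Q family-like enzyme, stood at 6.02, 6.002 and 5.82 in the 3 mutant embryos, against 7.08, 6.89 and 6.85 in the 3 wild-type embryos. All mutant embryos lay below all wild-type embryos. The means were 5.95 ± 0.11 in mutants and 6.94 ± 0.12 in wild types (SD, n = 3 each), a log2 difference of -0.99 (SE 0.11, 95% interval -1.23 to -0.76) or 1.99-fold lower in mutants, with an adjusted p of 0.00658 by limma. This was 1 of 30 measured family members, or 3.33%, against 0.0349% of all genes tested in embryos. The members' share rests on this 1 gene. The family was chosen with earlier results of these data known, so the 2 shares are a description and no test of the family.

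The Ube2ql1 difference in embryos was -1.03 without mutant embryo 1 of the later array date (adjusted p = 0.0178 by limma). Without the first-cross embryos it was -0.96 (adjusted p = 0.0393), which left the 4 embryos of the second cross. With sex as a covariate it was -1.002 (adjusted p = 0.0185). All of these fits kept the adult arrays, whose spread entered the p-values. With the cross as a replicate block the difference kept its size and its adjusted p was 0.0566, so that the call was lost; that fit called 0.00873% of all genes. A fit to the 6 embryonic arrays alone gave an adjusted p of 0.498. Neuron markers, 0 of 8 called, averaged 6.82 to 7.09 in mutant embryos and 6.88 to 7.17 in wild-type embryos; the groups overlapped. Microglia markers were higher in mutant embryos for 7 of 7 genes, 0 called, with averages of 4.66 to 5.28 in mutant embryos and 4.35 to 4.71 in wild-type embryos. Endothelial markers, 0 of 6 called, averaged 4.98 to 5.34 in mutant embryos and 4.95 to 5.04 in wild-type embryos, and the vessel gene Pecam1 among them differed by 0.73 (adjusted p = 0.115). Oligodendrocyte markers were lower in mutant embryos for 7 of 8 genes, 0 called, and averaged 3.83 to 4.08 in mutant embryos and 4.03 to 4.25 in wild-type embryos. These groups too overlapped. Some of the marker genes lay near the floor of 2.19 in embryos. The oligodendrocyte gene Mal averaged 2.34 in mutant and 2.38 in wild-type embryos, and the microglia gene P2ry12 2.63 and 2.29. The part of these cell types in the Ube2ql1 result was not tested. Of the probe sets listed for Ube2ql1, 1 was measured and the other stood at the floor of 2.19 on every array, so the result rests on a single probe set.

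In adult cortex Ube2ql1 stood at 10.92, 10.84 and 10.69 in mutants and at 10.63, 10.81 and 10.77 in wild types. These groups overlapped, with a log2 difference of 0.08 (95% interval -0.16 to 0.31). The genotype difference in adults minus that in embryos was 1.07 (SE 0.15, 95% interval 0.73 to 1.40). Its adjusted p over all genes was 0.128 by limma, the lowest among the 11449 genes. A gene with a lower unadjusted p had the same adjusted p, and Ube2ql1 ranked 2 by unadjusted p. That comparison called 0 family members and 0% of all genes by limma, while 3 of the 30 members and 630 of all genes had an unadjusted p under 0.05. With array weights the adjusted p of Ube2ql1 was 0.0342.

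Ube2ql1 was also the member with the largest stage rise. In mutants it stood 4.87 log2 units higher in adult cortex than at E12.5 (29.2-fold, SE 0.11, adjusted p = 4.86e-12), and in wild types 3.80 units higher (13.9-fold, SE 0.11, adjusted p = 3.88e-11). The stage and genotype comparisons of Ube2ql1 share arrays and are not separate evidence. Its relatives of the UBE2Q type had smaller stage differences. Ube2q1 had values of 9.47, 9.62 and 9.96 in adult mutants, 9.76, 9.86 and 9.85 in adult wild types, 9.58, 9.65 and 9.98 in embryonic mutants, and 9.56, 9.60 and 9.62 in embryonic wild types. Its genotype groups overlapped at both stages, and its stage differences were -0.05 in mutants and 0.23 in wild types, neither called. A second measured probe set of Ube2q1, tested by itself, was called lower in adults, at -0.55 in mutants (adjusted p = 0.00134) and -0.75 in wild types (adjusted p = 1.39e-04), so the lack of a call holds for the probe set that stands for the gene and not for both. Ube2q2 had values of 8.78, 8.69 and 8.62 in adult mutants, 8.47, 8.56 and 8.88 in adult wild types, 8.57, 8.35 and 8.30 in embryonic mutants, and 8.48, 8.32 and 8.51 in embryonic wild types. These groups also overlapped between genotypes, with embryonic and adult genotype differences of -0.03 and 0.06; its stage difference was 0.29 in mutants (adjusted p = 0.0499) and 0.20 in wild types (adjusted p = 0.161).

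The stretch of genome in front of Ube2ql1 is shown because this member carries the genotype result. It lies at chr13:69739898-69740147 on the minus strand in GRCm38.p6, the 250 bases before the RefSeq start of the gene, and holds neither of the motifs searched in the family, CCAAT (the CCAAT box) and TTTGAA (the core of the cell cycle genes homology region), on either strand. It has 24 CpG dinucleotides, more than 88.0% of all 32851 promoters of that length.
Ube2ql1: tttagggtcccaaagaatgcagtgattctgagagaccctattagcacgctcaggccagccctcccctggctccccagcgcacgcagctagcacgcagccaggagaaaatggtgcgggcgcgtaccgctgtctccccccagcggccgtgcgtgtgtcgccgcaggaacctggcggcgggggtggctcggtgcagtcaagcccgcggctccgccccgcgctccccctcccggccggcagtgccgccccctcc

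**Figure D1:**
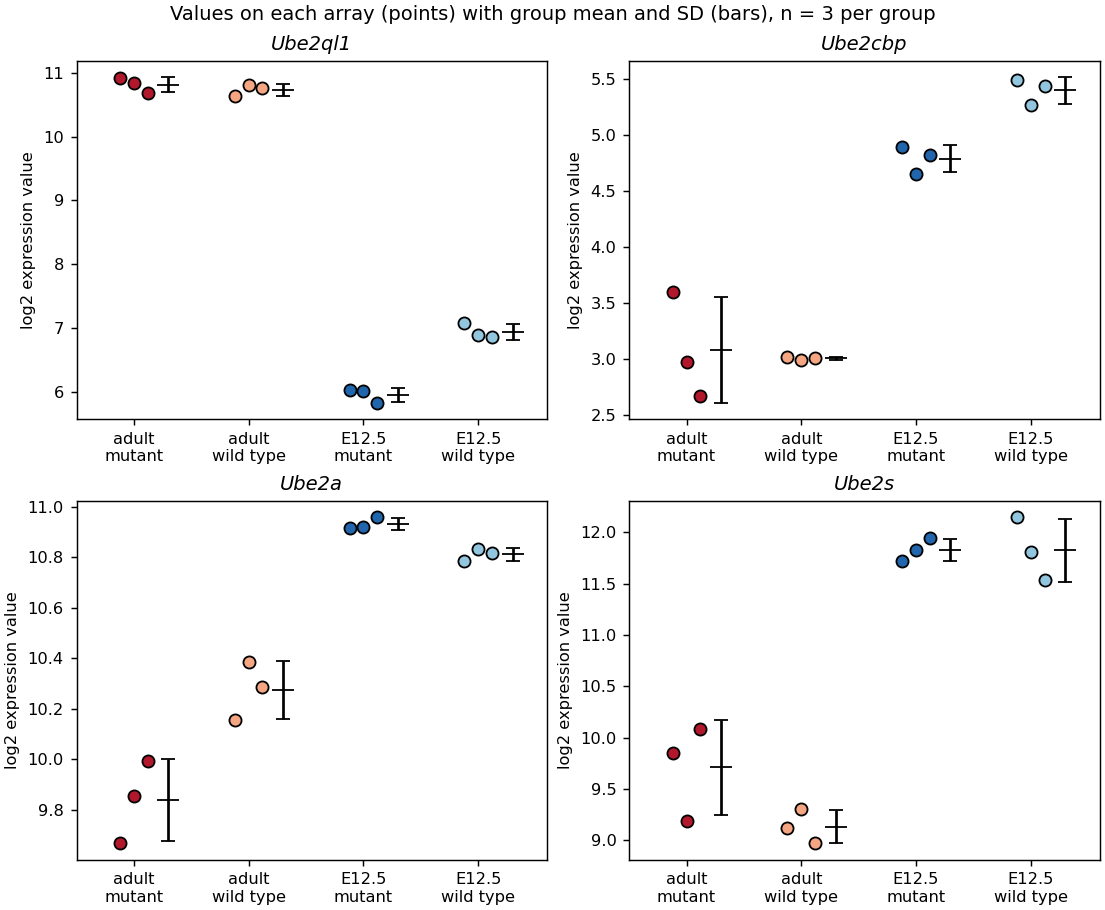
Log2 expression values of Ube2ql1, Ube2cbp, Ube2a and Ube2s on each of the 12 arrays, with the mean and SD of the 3 arrays of each group as bars; each panel has its own vertical range. For Ube2ql1 the embryonic mutants lie between 5.82 and 6.02 and the embryonic wild types between 6.85 and 7.08, while both adult groups lie between 10.63 and 10.92.

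No other member was called in embryos. The next lowest p belonged to Ube2cbp, which encodes a binding partner of the mitotic E2 Ube2c with ligase-like activity and is also named Ube3d, and which is therefore an E2-associated protein and not an E2 itself. It stood at 4.89, 4.65 and 4.81 in mutant embryos and at 5.48, 5.26 and 5.44 in wild-type embryos. The groups did not overlap, and the difference of -0.61 (SE 0.19, 95% interval -1.03 to -0.19) had an adjusted p of 0.645 by limma. In adults its values were low, at 3.60, 2.97 and 2.67 in mutants and 3.01, 2.99 and 3.01 in wild types. It passed the level rule through the 6 embryonic arrays alone and was the member closest above the threshold; the closest below it was Ube2l6.

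Ube2h, whose product is known for work on red cell maturation through the CTLH ligase, had 9.60, 9.85 and 9.67 in mutant embryos and 10.02, 10.16 and 10.13 in wild-type embryos. The embryonic groups were apart, with a difference of -0.40 (SE 0.19, adjusted p = 1.0 by limma). Another of its 4 probe sets, used where cross-hybridising probe sets were left out, gave -0.048. Its adult values were 10.80, 10.94 and 10.09 in mutants and 10.55, 10.41 and 10.40 in wild types, and these overlapped. Erythroid markers, which accompany blood in the sample, averaged 11.05 to 11.93 in mutant embryos and 10.72 to 12.13 in wild-type embryos, and their part in the Ube2h values was not tested.

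In embryos, 5 of the 30 members had no overlap between mutants and wild types, 1 with higher mutants (Ube2a) and 4 with lower mutants (Ube2ql1, Ube2cbp, Ube2h and Ube2j1). That is 16.7% of members, beside 8.29% of all genes. The median genotype difference over the members was 0.01 in embryos, beside -0.01 over all genes. The size of the difference was under 0.25 for 27 of the 30 members, and the 95% interval lay within 1 log2 unit of 0 for 28 of them, the exceptions being Ube2ql1 and Ube2cbp.

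In adult cortex 0 of the 30 members were called, beside 0.0524% of all genes by limma. At an unadjusted p under 0.05 there were 2 members and 520 of all genes. Mutants and wild types did not overlap for 3 members, or 10%, beside 9.39% of all genes; Ube2z was higher and Ube2a and Ube2k were lower in mutants. The size of the difference was under 0.25 for 28 of the 30, and the 95% interval lay within 1 log2 unit of 0 for 29, all but Ube2s. The median genotype difference was 0.02 over the members and 0.03 over all genes.

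The lowest p among members in adults belonged to Ube2a, the X-linked homologue of yeast RAD6, which ubiquitylates histone H2B and acts in DNA damage tolerance. It stood at 9.67, 9.86 and 9.99 in adult mutants and at 10.15, 10.39 and 10.29 in adult wild types. All mutants lay below all wild types, by -0.44 (SE 0.10, 95% interval -0.66 to -0.21), with an adjusted p of 0.630 by limma. Its second probe set differed by -0.02 in adults, so the probe sets of this gene did not move alike. In embryos the mutants had 10.91, 10.92 and 10.96 and the wild types 10.78, 10.83 and 10.82, which was 0.12 higher in mutants and not called. The adult difference minus the embryonic one was -0.56 (SE 0.15, adjusted p = 0.620).

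Other measures differed between the genotypes on some or all adult arrays. The actin control's 3′ minus 5′ value, a sign of RNA integrity or amplification length, was 1.91, 1.47 and 1.09 in adult mutants and 1.13, 1.13 and 1.06 in adult wild types. Of the oligodendrocyte markers 8 of 9 were measured and 0 called, and all 8 were lower in adult mutants. They averaged 9.50 to 9.74 in adult mutants and 9.66 to 10.02 in adult wild types, which overlapped. Endothelial markers were higher in adult mutants for 5 of 6 measured genes, 0 called, and averaged 6.17 to 6.23 in adult mutants and 5.77 to 6.13 in adult wild types, which did not overlap. The part of these measures in the adult Ube2a values was not tested.

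Ube2b, the autosomal twin of Ube2a, had 11.72, 12.09 and 11.95 in adult mutants and 12.03, 12.20 and 12.08 in adult wild types. These overlapped, with a difference of -0.18 (95% interval -0.44 to 0.07). At E12.5 it had 11.44, 11.56 and 11.67 in mutants and 11.53, 11.55 and 11.69 in wild types, which overlapped as well. Across stages Ube2b rose in adults, by 0.36 in mutants (adjusted p = 0.0126) and 0.51 in wild types (adjusted p = 0.00157), whereas the main Ube2a probe set fell, with a difference of -1.09 in mutants (adjusted p = 1.27e-06) and -0.54 in wild types (adjusted p = 4.79e-04).

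Ube2k and Ube2z complete the members with the lowest adult p. Ube2k, an E2 that builds K48-linked chains for the proteasome, had 10.50, 10.56 and 10.57 in adult mutants and 10.79, 10.67 and 10.60 in adult wild types, a narrow separation with a difference of -0.14. Ube2z, the E2 loaded by Uba6, had 9.35, 9.20 and 9.14 in adult mutants and 8.98, 9.12 and 9.01 in adult wild types, also separated and 0.19 higher. Both had an adjusted p of 1.0 by limma. In embryos Ube2k had 11.10, 11.01 and 11.05 in mutants and 10.98, 11.09 and 11.03 in wild types, and Ube2z 8.10, 8.39 and 8.65 in mutants and 8.36, 8.44 and 8.45 in wild types. Both members overlapped between the embryonic genotypes.

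**Figure D2:**
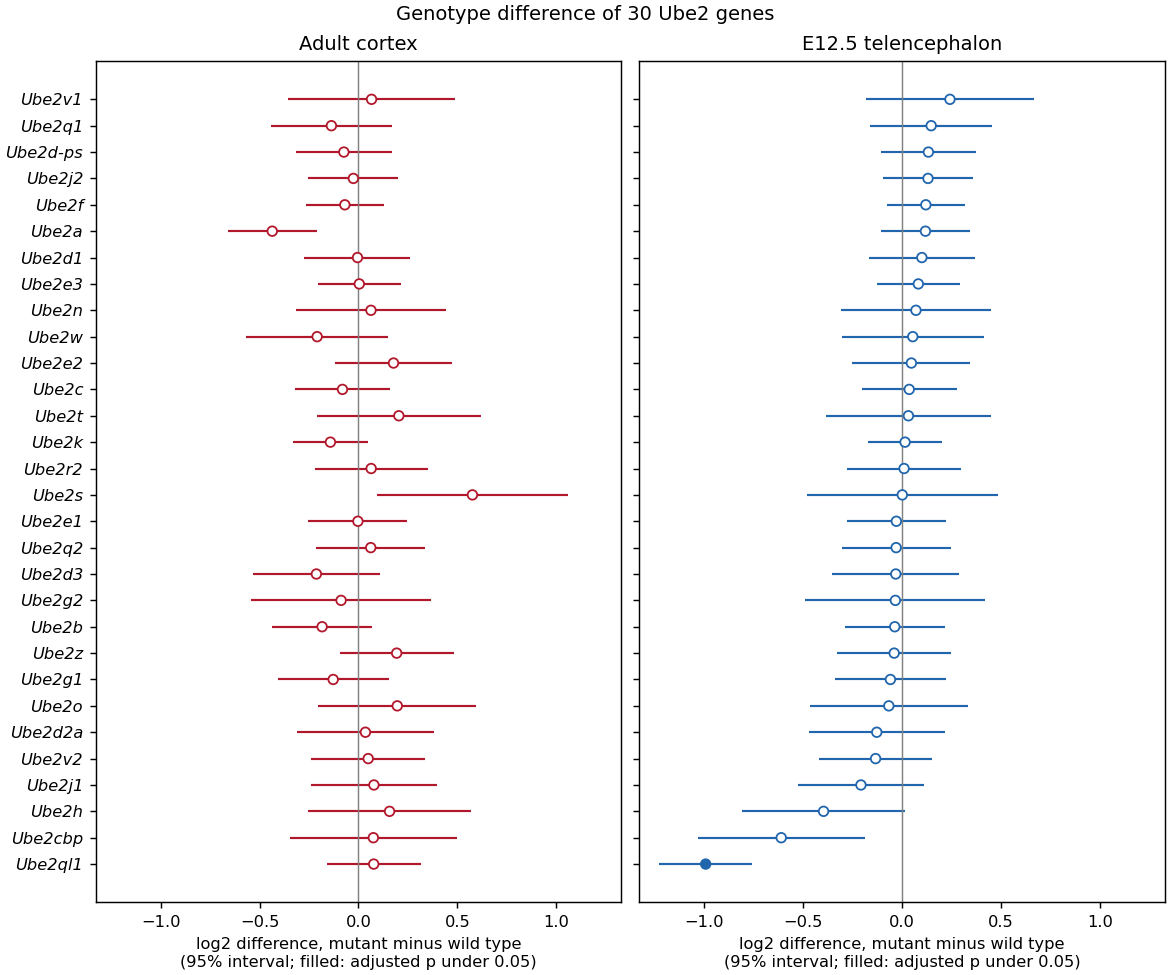
Log2 difference, mutant minus wild type, of the 30 measured members in adult cortex (left) and E12.5 telencephalon (right), with 95% intervals; members run down the page by their embryonic difference, and filled points have an adjusted p under 0.05. The filled point of Ube2ql1 at -0.99 in embryos is the lone call, and 28 adult and 27 embryonic differences are under 0.25 in size.

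Between the stages most members differed. In mutants 27 of the 30 were called, 10 higher and 17 lower in adult cortex than at E12.5, and in wild types 24 were called, 8 higher and 16 lower. The lower calls of both genotypes include Ube2c and Ube2cbp, which passed the level rule through the embryonic arrays alone. Their direction was built into their choice, here and in the shares below. The 24 called in wild types were all called in mutants in the same direction. On their main probe sets Ube2g1, Ube2h and Ube2q2 were called in mutants only, and Ube2e1, Ube2q1 and Ube2v1 in neither genotype. Other probe sets, tested singly by limma, were called in wild types for Ube2g1 (-2.10), Ube2h (0.71 and 0.73) and Ube2v1 (0.37). Those of Ube2g1 and Ube2v1 are of the cross-hybridising kind. For Ube2e1 the second probe set was called at -0.73 in mutants and -0.92 in wild types, and that of Ube2q1 is given above. The lack of a call thus held for the main probe sets. Whether stage differences differed between genotypes is the test given above for the difference, which called none. The 2 stage comparisons use different arrays.

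These counts are set against a large background. Of all genes, 39.5% were higher and 42.2% lower in adult mutants than in embryonic mutants, beside 33.3% and 56.7% of the members; 38.4% were higher and 43% lower in adult wild types, beside 26.7% and 53.3% of the members. At least 2-fold, called differences were found in mutants in 6 members upward and 10 downward, or 20% and 33.3%, beside 28.1% and 27.7% of all genes. In wild types 6 members differed upward and 7 downward, or 20% and 23.3%, beside 27.5% and 28.7% of all genes. The median wild-type stage difference was -0.44 over the members and -0.08 over all genes, and the median size was 0.94 over the members and 1.19 over all genes. Stage, array date and the cell makeup of the tissue cannot be told apart: cell cycle genes, 20 of 20 measured called lower in adults, averaged 2.93 to 3.05 in adult mutants and 10.62 to 10.71 in embryonic mutants, and 2.89 to 2.96 in adult wild types and 10.57 to 10.65 in embryonic wild types. Neuron markers, 6 of 8 called higher and 1 lower in adult wild types, averaged 6.82 to 7.09 in embryonic mutants and 6.88 to 7.17 in embryonic wild types, below the adult values given above. Erythroid markers, 5 of 10 measured, averaged 2.56 to 2.88 in adult mutants and 11.05 to 11.93 in embryonic mutants. Some genes of these lists lay near the floor at 1 stage, such as Top2a, Bub1 and Hbb-y in adults and Thy1 in embryos. They passed the level rule through the other stage, so that a stage difference was built into their choice.

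**Figure D3:**
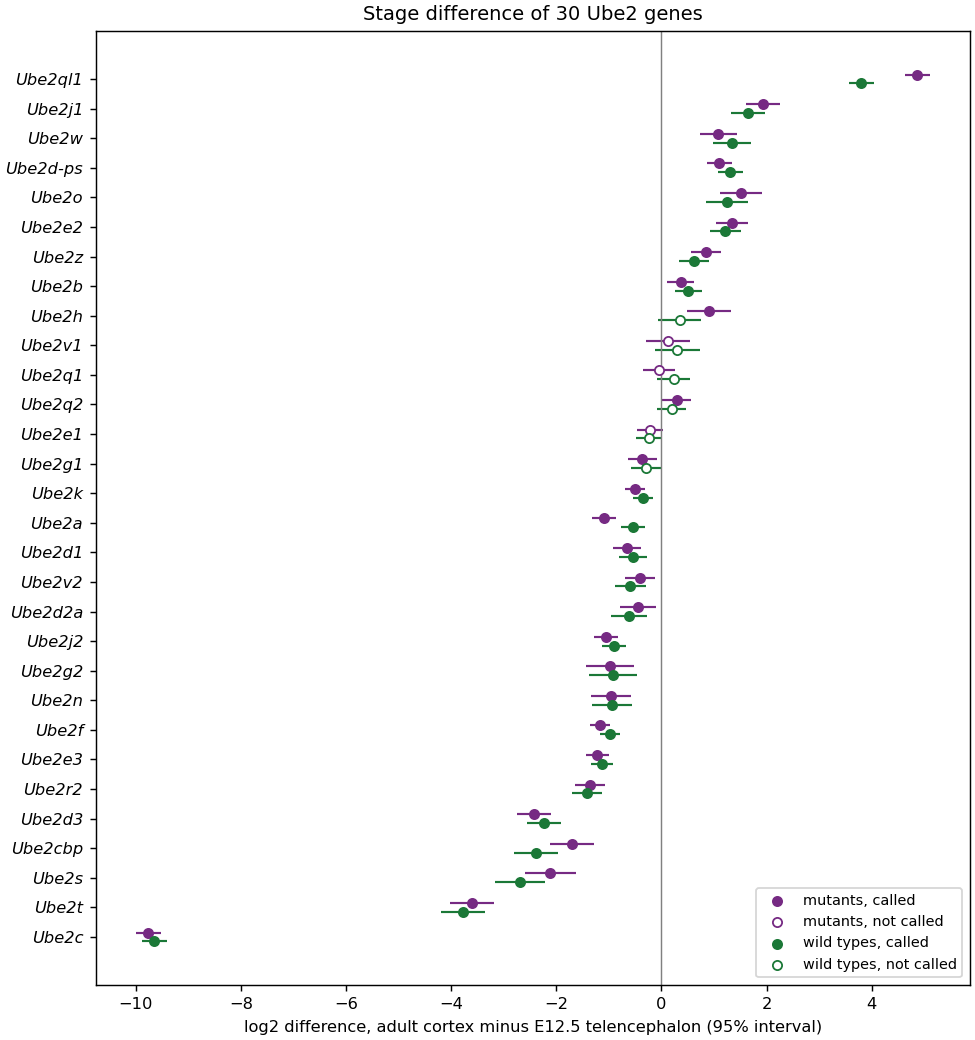
Log2 difference, adult cortex minus E12.5 telencephalon, of the 30 measured members in mutants (purple) and wild types (green), with 95% intervals; filled points have an adjusted p under 0.05. Ube2ql1 lies at the top, at 4.87 in mutants and 3.80 in wild types, and Ube2c at the bottom, at -9.77 and -9.65.

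The 3 E2 enzymes of dividing cells were all lower in adults. Ube2c, which with the anaphase-promoting complex starts the chains that send cyclin B to the proteasome, stood at 2.26, 2.38 and 2.52 in adult mutants, against 12.14, 12.05 and 12.25 in embryonic mutants. In wild types it stood at 2.52, 2.52 and 2.36 in adults, against 11.97, 12.14 and 12.23 in embryos. The difference was -9.77 in mutants (SE 0.11, adjusted p = 5.37e-14 by limma) and -9.65 in wild types (SE 0.11, adjusted p = 6.09e-14). The adult values lay close to the floor of 2.19, so the size of the change is uncertain. Like Ube2cbp, Ube2c passed the level rule through the 6 embryonic arrays alone, so that a stage difference was built into its choice.

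Ube2t, the E2 of the Fanconi anaemia pathway that ubiquitylates FANCD2 in DNA crosslink repair, had 5.32, 4.91 and 4.75 in adult mutants and 8.57, 8.42 and 8.80 in embryonic mutants. In wild types it had 4.70, 4.53 and 5.14 in adults and 8.51, 8.43 and 8.74 in embryos. Stages were far apart in both genotypes, by -3.60 in mutants (adjusted p = 7.20e-09) and -3.77 in wild types (adjusted p = 4.87e-09). The genotype groups overlapped at each stage.

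Ube2s, which lengthens K11-linked chains on the substrates that Ube2c has primed, had 9.85, 9.19 and 10.09 in adult mutants and 9.13, 9.30 and 8.98 in adult wild types. Adult mutants 1 and 3 were above all wild types and mutant 2 was among them, so the groups overlapped; the difference was 0.58 (SE 0.22, 95% interval 0.09 to 1.06, adjusted p = 1.0 by limma). In embryos it had 11.72, 11.82 and 11.94 in mutants and 12.14, 11.80 and 11.53 in wild types, with a difference of 0.002 in which the groups overlapped. Its stage difference was -2.12 in mutants (adjusted p = 2.94e-06) and -2.69 in wild types (adjusted p = 3.48e-07). Ube2s rests on 1 measured probe set, of the cross-hybridising kind, and its other probe set lay close to the floor on every array. Where cross-hybridising probe sets were left out, Ube2s was not measured.

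The promoters of these 3 genes are shown because the genes fell together, with the CCAAT box and the TTTGAA core in capitals on either strand. They are the 250 bases before the RefSeq start in GRCm38.p6. Ube2c lies at chr2:164769679-164769928 on the plus strand and holds 6 CCAAT matches, at 228, 186, 183, 155, 88 and 57 bases before the start, of which those at 186 and 183 overlap, and 1 TTTGAA match at 29. Ube2t lies at chr1:134962315-134962564 on the plus strand and holds 3 CCAAT matches, at 124, 80 and 40, and no TTTGAA match. Ube2s lies at chr7:4812341-4812590 on the minus strand and holds neither.
Ube2c: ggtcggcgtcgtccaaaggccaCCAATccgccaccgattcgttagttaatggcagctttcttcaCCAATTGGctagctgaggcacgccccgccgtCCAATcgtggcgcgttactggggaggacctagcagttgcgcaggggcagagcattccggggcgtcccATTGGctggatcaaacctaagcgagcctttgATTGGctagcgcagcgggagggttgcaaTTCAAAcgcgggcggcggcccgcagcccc
Ube2t: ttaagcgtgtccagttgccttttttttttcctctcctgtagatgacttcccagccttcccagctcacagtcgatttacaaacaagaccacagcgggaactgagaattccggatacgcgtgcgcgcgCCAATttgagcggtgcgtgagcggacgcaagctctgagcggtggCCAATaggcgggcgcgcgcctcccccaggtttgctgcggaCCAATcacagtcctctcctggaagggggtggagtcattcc
Ube2s: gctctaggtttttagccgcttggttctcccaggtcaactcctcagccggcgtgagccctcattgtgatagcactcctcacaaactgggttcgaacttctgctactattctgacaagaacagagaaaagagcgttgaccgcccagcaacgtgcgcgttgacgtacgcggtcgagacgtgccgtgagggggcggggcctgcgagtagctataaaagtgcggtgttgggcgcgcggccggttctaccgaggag

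Promoters were found for 27 of the 33 family genes, 36 promoters in all. CCAAT occurred in 7 of the 36, or 19.4%, beside 33.8% of all 32851 promoters of that length, and TTTGAA in 4, or 11.1%, beside 16.0%. The median number of CpG dinucleotides was 23.5 in the members' promoters and 6 in all promoters, whose middle range ran between 2 and 16. A match is a description of letters in the window and not a binding site.

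The UBE2D and UBE2E enzymes work with many RING ligases. Of this group 7 of 8 genes were measured. On their main probe sets 2 were higher and 4 lower in adults than in embryos, in mutants and likewise in wild types. Between genotypes 0 were called at either stage. Ube2d3 had 10.09, 10.52 and 10.63 in adult mutants and 12.89, 12.72 and 12.88 in embryonic mutants, and 10.63, 10.81 and 10.44 in adult wild types and 12.87, 12.80 and 12.93 in embryonic wild types. On this main probe set every adult lay below every embryo, by -2.42 in mutants (adjusted p = 2.41e-08 by limma) and -2.24 in wild types (adjusted p = 4.91e-08). Some other probe sets of Ube2d3 were called higher in adults, as given below. The genotype groups overlapped at both stages.

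Ube2d-ps, which RefSeq lists as a long non-coding RNA and whose name marks it as a Ube2d pseudogene, moved the other way. It had 6.09, 6.08 and 6.23 in adult mutants and 5.22, 4.91 and 4.96 in embryonic mutants, and 6.26, 6.16 and 6.20 in adult wild types and 4.76, 4.89 and 5.04 in embryonic wild types. The stages were apart, by 1.10 in mutants (adjusted p = 2.16e-06) and 1.31 in wild types (adjusted p = 4.61e-07). Whether transcripts of other Ube2d genes bind its probes was not tested. Of the members of its kind, Ube2d1 differed by -0.66 in mutants and -0.55 in wild types and Ube2d2a by -0.45 and -0.61, all called.

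Among the UBE2E enzymes, Ube2e2 rose and Ube2e3 fell. Ube2e2 had 10.41, 10.32 and 10.38 in adult mutants and 8.72, 9.09 and 9.27 in embryonic mutants, and 10.19, 10.04 and 10.35 in adult wild types and 8.96, 9.01 and 8.97 in embryonic wild types. Adults were above embryos throughout, by 1.34 in mutants (adjusted p = 2.32e-06) and 1.21 in wild types (adjusted p = 5.61e-06). Ube2e3 differed by -1.22 in mutants and -1.14 in wild types, both called. On its main probe set Ube2e1 differed by -0.21 and -0.24, neither called.

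Enzymes of endoplasmic reticulum quality control, which mark misfolded proteins for extraction and degradation, were split. Ube2j1, a membrane-anchored E2, had 9.31, 9.07 and 8.72 in adult mutants and 7.13, 6.96 and 7.21 in embryonic mutants, and 9.03, 8.98 and 8.86 in adult wild types and 7.42, 7.28 and 7.22 in embryonic wild types. Adults were above embryos by 1.93 in mutants (adjusted p = 1.57e-07) and 1.65 in wild types (adjusted p = 6.45e-07) on this probe set. Embryonic mutants lay just below embryonic wild types, by -0.21 (adjusted p = 1.0 by limma). Ube2j2 differed by -1.06 in mutants and -0.90 in wild types and Ube2g2 by -0.98 and -0.93, all called. On its main probe set Ube2g1 differed by -0.36 in mutants (adjusted p = 0.0202 by limma) and -0.29 in wild types (adjusted p = 0.0510).

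Ube2r2 and Ube2f, grouped here for their work with cullin ligases, were both lower in adults on their main probe sets. Ube2r2, a CDC34-type E2 that extends K48 chains, had 9.19, 9.15 and 8.83 in adult mutants and 10.46, 10.52 and 10.25 in embryonic mutants, and 9.05, 8.91 and 9.01 in adult wild types and 10.49, 10.52 and 10.21 in embryonic wild types. The stages did not overlap, with differences of -1.36 in mutants (adjusted p = 1.48e-06) and -1.41 in wild types (adjusted p = 1.05e-06). Ube2f, which loads NEDD8 onto CUL5, had 8.70, 8.69 and 8.65 in adult mutants and 9.85, 9.77 and 9.93 in embryonic mutants, and 8.67, 8.82 and 8.76 in adult wild types and 9.64, 9.82 and 9.73 in embryonic wild types. It differed by -1.17 in mutants (adjusted p = 1.92e-07 by limma) and -0.98 in wild types (adjusted p = 9.35e-07). Embryonic mutants and wild types overlapped with a difference of 0.12. Of the 6 measured probe sets of Ube2f, 4 were lower in adults in both genotypes. The others differed by 0.29 and 0.26 in mutants and by 0.35 and 0.22 in wild types, with none called.

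The K63-chain enzymes, in which Ube2n is the catalytic E2 and Ube2v1 and Ube2v2 are variants without the active cysteine, had 2 of 3 genes called lower in both genotypes. On their main probe sets Ube2n differed by -0.96 in mutants and -0.95 in wild types, and Ube2v2 by -0.41 and -0.59. Ube2v1 differed by 0.12 and 0.30 on its main probe set, neither called. Genotype differences of the 3 genes lay between 0.05 and 0.07 in adults and between -0.13 and 0.24 in embryos, with 0 calls.

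Of the remaining single enzymes, Ube2o rose at least 2-fold, and so did Ube2w on the probe set that stands for it. Ube2w, which attaches ubiquitin to the amino terminus of proteins, had 9.92, 10.12 and 9.89 in adult mutants and 8.61, 8.96 and 9.11 in embryonic mutants, and 10.15, 10.43 and 9.99 in adult wild types and 8.67, 8.79 and 9.07 in embryonic wild types. Adults lay above embryos, by 1.08 in mutants (adjusted p = 7.38e-05) and 1.35 in wild types (adjusted p = 1.16e-05). This was 1 of 3 measured probe sets of Ube2w; the others, tested singly, differed by 0.13 and 0.27 in mutants and by 0.18 and 0.03 in wild types, with none called. Ube2o, a large protein with both E2 and E3 activity, had 9.14, 8.72 and 9.11 in adult mutants and 7.16, 7.45 and 7.85 in embryonic mutants, and 8.67, 8.72 and 8.99 in adult wild types and 7.40, 7.59 and 7.67 in embryonic wild types. It was 1.504 higher in adult mutants (adjusted p = 1.12e-05) and 1.24 higher in adult wild types (adjusted p = 5.71e-05). Ube2z rose by 0.85 in mutants and 0.62 in wild types, and on its main probe set Ube2k differed by -0.51 and -0.35, both called. On its main probe set Ube2h differed by 0.90 in mutants (adjusted p = 8.39e-04 by limma) and 0.35 in wild types (adjusted p = 0.104). The stage difference of Ube2cbp was -1.71 in mutants and -2.39 in wild types, for a gene kept through the embryonic arrays alone.

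For several members the direction between stages depended on the probe set. Of the 20 members with at least 2 measured probe sets, 6 had probe sets called in both directions in mutants and in wild types alike, or 30%, beside 8.17% of 5287 such genes in mutants and 7.53% in wild types; members had 3 measured probe sets on average and all such genes 2.67. The 6 were Ube2a, Ube2d3, Ube2j1, Ube2k, Ube2n and Ube2v2. The second probe set of Ube2j1 was lower in adults, by -2.50 in mutants and -2.74 in wild types, where the first was higher. The second probe set of Ube2n was 1.88 higher in adult mutants and 1.56 higher in adult wild types, and that of Ube2a 0.92 and 1.00 higher, where the main ones were lower.

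Ube2d3 had 7 measured probe sets, 4 called lower and 3 called higher in adults. In mutants they spanned -2.90 to 1.53 and in wild types -2.24 to 1.28. Of the Ube2v2 probe sets, the main one was lower and the others 1.35 and 2.98 higher in adult mutants, and 1.23 and 2.66 higher in adult wild types. Ube2k had 1 probe set 1.55 higher in adult mutants and 1.41 higher in adult wild types, and the other 3 lower. The higher probe set of Ube2k is of the cross-hybridising kind. Probe sets of a gene can lie in different parts or isoforms of its transcript, and which isoforms these bind was not tested. All probe sets of a member had the same sign in 12 of the 20 members in the mutant stage comparison, 10 in the wild-type one, 8 in the adult genotype comparison and 7 in the embryonic one. With each probe set tested on its own, 1 of 70 was called between embryonic genotypes, that of Ube2ql1 (adjusted p = 0.00778), and 0 of 70 between adult genotypes.

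**Figure D4:**
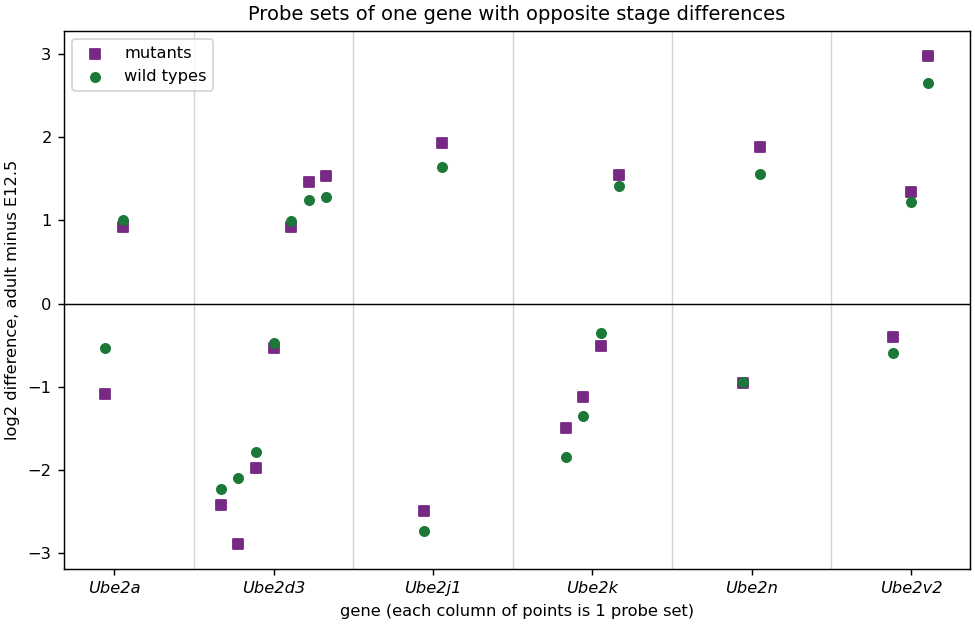
Log2 difference, adult minus E12.5, of every measured probe set of the 6 members whose probe sets were called in both directions, with squares for mutants and circles for wild types; each column of points is 1 probe set. Ube2j1 has 1 probe set at 1.93 in mutants and 1.65 in wild types and another at -2.50 and -2.74.

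The remaining 3 family genes did not pass the level rule. Ube2d2b and Ube2u stood at the floor of 2.19 on every array. Ube2l6, an E2 for the interferon-induced modifier ISG15, was over 4 on 2 arrays, mutant embryo 1 at 4.49 and wild-type embryo 2 at 4.01, and between 2.19 and 2.37 on the others.

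The other genes of the ubiquitin pathway were described from lists of partners. No gene of any pathway list was called between genotypes at either stage by limma: 0 of 5 measured E1 enzymes, 0 of 4 ubiquitin and ubiquitin-like genes, 0 of 8 E2 enzymes with other names, 0 of 17 genes of the anaphase-promoting complex, 0 of 13 RAD6 partners, 0 of 11 SUMO ligases and proteases, 0 of 16 NEDD8 and cullin genes, 0 of 10 quality-control ligases, 0 of 10 K63 and DNA damage ligases, 0 of 17 HECT and RBR ligases, and 0 of 20 cell cycle genes. At an unadjusted p under 0.05 the adult comparison held 520 of all 11449 genes, and on the lists 2 of the 17 HECT and RBR ligases and 1 gene each of the ubiquitin and ubiquitin-like genes, the anaphase-promoting complex, the RAD6 partners, the K63 and DNA damage ligases and the cell cycle genes. The embryonic comparison held 516 of all genes, and on the lists 4 of the 20 cell cycle genes and 1 gene each of the RAD6 partners, the NEDD8 and cullin genes and the HECT and RBR ligases.

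Between stages many partners differed. Of 17 genes of the anaphase-promoting complex, the partner of Ube2c and Ube2s, 16 were lower and 0 higher in adults in mutants and in wild types, with a median of -1.01 in mutants and -0.91 in wild types. Its activator Cdc20 differed by -7.44 in mutants and -7.32 in wild types, and its inhibitor Fbxo5 by -6.86 and -6.59. Of 10 K63 and DNA damage ligases and partners 9 were lower and 0 higher in both genotypes, with Fancd2, the substrate of Ube2t, at -2.49 and -2.57. Fancd2 averaged 3.58 in adult mutants and 3.74 in adult wild types, under the threshold of 4, as did Brca1 and Fanci in adults. A stage difference may thus have been built into the choice of these 3 genes. Of 16 NEDD8 and cullin genes 2 were higher and 10 lower in mutants and 4 higher and 10 lower in wild types, with Cul1 at -0.87 and -0.91.

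RAD6 partners had 3 higher and 7 lower of 13 in both genotypes, and Rnf20, the ligase that works with Ube2a and Ube2b on histone H2B, differed by -1.11 in mutants and -1.16 in wild types. Among 10 quality-control ligases and partners 5 were higher and 3 lower in mutants and 3 higher and 2 lower in wild types; Sel1l, part of the ligase complex at the endoplasmic reticulum, differed by 1.39 and 1.21. Of 17 HECT and RBR ligases 9 were higher and 5 lower in mutants and 6 higher and 6 lower in wild types, with Rnf14 at 2.81 and 2.71 and Nedd4l at 2.76 and 2.35. Of 8 E2-fold genes with other names 3 were higher and 3 lower in both genotypes, with Aktip at 1.29 in mutants and 1.25 in wild types and Tsg101 at -1.10 and -0.98.

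Of 5 measured E1 enzymes 0 were higher and 3 lower in mutants and 1 was higher and 4 lower in wild types. Uba6, which loads Ube2z, differed by -1.04 in mutants and -1.51 in wild types, opposite in sign to Ube2z. Of 4 ubiquitin and ubiquitin-like genes 0 were higher and 3 lower in both genotypes, with Ufm1 at -1.30 and -0.89. Of 11 SUMO ligases and proteases 2 were higher and 4 lower in mutants and 1 higher and 6 lower in wild types, with Senp1 at -1.69 and -2.14. All these counts stand beside the shares of all genes given above for the stages.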

How the data were processed

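The deposited values are log2 expression values, 1 for each probe set on each array. They were made with GCRMA, a background model based on probe sequence, per the submitters' processing notes, which give neither version nor settings. Per the labels' protocols, biotin-labelled target was made from total RNA with a kit that amplifies over more than 1 cycle. The deposited log2 values were used without further scaling. There are no counts; precision is limited by how many arrays there are. Adult arrays carry separate mouse numbers; what an embryonic array held is not given, so part of its spread may be technical.

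Gene names of probe sets are those of the platform annotation, updated by gene ID against RefSeq of GRCm38.p6. Probe sets listing several genes were left out of the tests. Genes were fitted with limma 3.58.1 in R 4.3.3 (lmFit, eBayes) over 4 groups with 8 residual degrees of freedom, and p-values were adjusted by Benjamini-Hochberg over 11449 genes. The script was tested on simulated data. Promoters are RefSeq's. Probe set filters, summaries, scaling, samples, blocks, weights and variance models were varied as alternatives.

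The members and lists were chosen with earlier results of these data known. Values on each array are given for members called in a genotype comparison or in the difference between stages, the 5 members with the lowest p in each of these, the 6 largest stage rises and falls in wild types, and close relatives of these; other members are given by their differences or counts, and up to 3 genes of each list are named. Embryos share parents by label. Deviations from group means correlated at 0.506 in the first cross and 0.136 to 0.253 in the second, and at -0.363 to -0.225 between crosses; adult age pairs correlated at -0.014 to 0.268, so their pairing was not clear. The cross and age pair entered as a replicate block in an alternative only.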

Additional observations from a re-analysis of the deposited data

How the results depend on the processing

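Results named above were recomputed under alternative filters, probe set summaries, scalings, sample sets, weights and variance models. Not every stage call held: in mutants Ube2q2 was called in 10 of 28 alternatives, with 22 for Ube2d2a and for Ube2v2, 24 for Ube2g1, 26 for Ube2b and 27 for Ube2a, while the 24 members called in wild types were called in every alternative that gave a value, 4 of them with a turned sign in 1 alternative. In embryos, the number of members called was 0, in place of 1, with a replicate block for the cross and with only the groups compared, a fit with fewer arrays; the cause of the first was not tested. The replicate block changed no other call between genotypes among the named results. With array weights the difference between stages called 1 member, in place of 0. Leaving out 1 array at a time, the embryonic Ube2ql1 difference stayed called and lay between -1.04 and -0.92. The count of stage calls lay between 23 and 28 of the members in mutants and between 24 and 28 in wild types. With the mean of all probe sets of a gene, the adult genotype difference of Ube2b was 0.011 and the wild-type stage difference of Ube2j1 was -0.55 (adjusted p = 2.31e-04), both reversed; Ube2a, Ube2n and Ube2v2 also turned in wild types, to 0.23, 0.31 and 1.10, and Ube2j1, Ube2n and Ube2v2 turned under 1 alternative in mutants too. Without cross-hybridising probe sets the embryonic genotype difference of Ube2f was -0.045, reversed. A fit to only the groups compared could not be run for the difference between stages, which needs all 4 groups. The 3 arrays per group limit what size of genotype difference can be called.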

Other observations

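Ube2l3, an E2 that serves HECT and RBR ligases such as parkin, was carried by 4 probe sets that each list 5 genes, and it was therefore left out of the tests. The highest of them, by mean, averaged 10.10 in adult mutants and 10.45 in adult wild types, and 11.55 in embryonic mutants and 11.45 in embryonic wild types. The others lay between 8.97 and 9.99 on all arrays.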
